A study of Mus musculus with 15 samples.

Results

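Tumor necrosis factor (TNF) and its relatives are signalling proteins that cells use to start inflammation, to keep lymphocytes alive or to trigger cell death. The genes described here are 56 named in the array's own annotation as Tnf, as a TNF superfamily ligand (Tnfsf) or receptor (Tnfrsf), as a TNF-induced protein (Tnfaip), or as one of 14 further ligands, receptors and adaptors with names of their own (Lta, Ltb, Ltbr, Fas, Fasl, Cd40, Cd40lg, Cd27, Cd70, Traf1, Traf2, Traf3, Traf6 and Tradd). They are 56 of the 27845 gene names on the array and carry 75 of its 41174 probes. Each gene was read at the probe with the highest mean heart signal. The set holds 17 ligands, 25 receptors, 5 adaptors and 8 Tnfaip genes, and also Tnfsf5ip1, which the name rule takes in although RefSeq now calls it Psmg2, a chaperone of proteasome assembly.

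Hearts came from 5 nondiabetic C57BL/KLS-leprdb/lepr+ (*db/+*) littermates, 5 untreated C57BL/KLS-leprdb/leprdb (*db/db*) mice and 5 *db/db* mice that ate chow with rosiglitazone, a drug that activates the nuclear receptor PPARγ, at 5 mg/kg per day for 4 months. A *db/db* mouse carries a leptin receptor mutation on both copies of the gene in all of its cells, becomes obese and develops insulin resistance. Its *db/+* controls carry 1 copy of the same mutation. The age of the mice is not given in the sources used here. RNA of whole hearts was labelled with Cy5 and hybridised with a universal mouse reference RNA labelled with Cy3, so that each value below is a log2 ratio of heart to reference at 1 probe and serves to compare hearts at that probe, not genes with each other.

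Ligands of the family act as trimers on receptors that share cysteine-rich repeats. Receptors with a death domain, such as Tnfrsf1a and Fas, can recruit adaptors (Tradd in the case of Tnfrsf1a) and activate caspase 8. Most receptors bind Traf proteins and switch on NF-κB, a transcription factor that in turn raises Tnfaip3 and other feedback genes. In the heart, TNF is made by macrophages and by stressed muscle, and both TNF receptors are found on muscle and vessel cells. Several other members belong to lymphocytes, such as the receptors for the B cell survival factor BAFF.

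The array design places the probes of Ltb, Tnf and Lta within 7238 bases of chromosome 17 (mouse build mm8, as are all probe positions here). These 3 ligand genes, neighbours in the genome, gave different values between hearts, and the start of each probe is shown to identify what was measured, as the first 30 of its 60 bases, 5′ to 3′, with no base marked.
Ltb: atctgtattcattcctggaggatcgactga
Tnf: tgggctttccgaattcactggagcctcgaa
Lta: aggggaaaaatagaaagccgtcagatgaca
The Ltb probe lies at chr17:34804204-34804263, plus strand. The Tnf probe lies at chr17:34807902-34807961, minus strand, and the Lta probe at chr17:34811382-34811441, minus strand. The next probes are those of the 3 genes called lower with the largest measured differences between untreated *db/db* and *db/+* hearts.
Tnfrsf13c: ataaaatggactaacacaggcactatgagt
Tnfrsf17: tagataatgagcttcctaactggtgtgaag
Tnfaip8l1: gcggcagatcgtggcttctctcaatggttt
They lie at chr15:82049050-82049109, minus strand, at chr16:11233530-11233589, plus strand, and at chr17:55806583-55806642, plus strand. Fas has a pair of probes that differed in their call, the brighter for NM_007987 and the dimmer for AK086933.
Fas, brighter probe: caactcctggtgtgttctctttgccagcaa
Fas, dimmer probe: ggagagactctttaaaatgaaaacacaata
The brighter Fas probe lies at chr19:34393409-34393468, plus strand and the dimmer at chr19:34375240-34375299, plus strand.

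Promoters bear on the same 3 neighbours, since NF-κB acts on many genes of the family. The 250 bases before the start of Ltb, Tnf, Lta and Tnfaip3, from RefSeq on GRCm38.p6, are printed 5′ to 3′ with matches to the 10-base NF-κB consensus, searched on both strands, in capitals.
Ltb: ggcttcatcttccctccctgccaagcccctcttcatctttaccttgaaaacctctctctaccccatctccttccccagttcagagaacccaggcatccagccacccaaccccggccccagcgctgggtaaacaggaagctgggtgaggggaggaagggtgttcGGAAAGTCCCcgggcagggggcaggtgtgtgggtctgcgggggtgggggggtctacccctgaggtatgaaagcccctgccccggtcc
Tnf: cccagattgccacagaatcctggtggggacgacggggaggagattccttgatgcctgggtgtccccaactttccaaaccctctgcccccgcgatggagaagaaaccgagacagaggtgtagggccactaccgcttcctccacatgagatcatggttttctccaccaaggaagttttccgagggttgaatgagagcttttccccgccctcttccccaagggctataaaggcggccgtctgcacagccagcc
Lta: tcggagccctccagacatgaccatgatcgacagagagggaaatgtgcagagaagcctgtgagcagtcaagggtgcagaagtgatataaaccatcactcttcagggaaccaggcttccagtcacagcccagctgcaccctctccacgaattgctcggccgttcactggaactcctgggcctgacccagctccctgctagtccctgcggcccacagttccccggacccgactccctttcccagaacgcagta
Tnfaip3: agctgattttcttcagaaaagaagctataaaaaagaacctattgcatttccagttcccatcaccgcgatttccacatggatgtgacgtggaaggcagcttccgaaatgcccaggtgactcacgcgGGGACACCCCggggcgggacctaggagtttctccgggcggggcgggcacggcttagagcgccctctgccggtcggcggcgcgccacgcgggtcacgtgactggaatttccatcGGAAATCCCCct
These windows are chr17:35194257-35194506, plus strand, chr17:35202008-35202257, minus strand, chr17:35205352-35205601, minus strand, and chr10:19015411-19015660, minus strand. Ltb held 1 match, which starts 87 bases before the gene's start, and Tnfaip3 held 2, at 125 and 12 bases, while its other start in the table had none. No match lay in these windows of Tnf and Lta, which says only that these letters are not in them. Tnfaip8l1 held 1 match (GGAATCTCCC, 148 bases before its start). Matches also lay before Tnfaip2, Tnfrsf25, Tnfrsf8, Tnfrsf9 and Traf3, and neither these genes nor Tnfaip3 were called between groups. The called genes Traf1, Tnfrsf13c, Tnfrsf17 and Tnfrsf21 had no match in their windows, and no window is given here for the called genes Tnfaip8 and Tnfrsf22. Of the 27025 genes with a promoter in the table, 8.2% held a match, with matches allowed to overlap. Only 43 of the 56 genes (76.8%) had a promoter there, under the 80% set for a check over a whole set, so such a check is void and no share is read for the set.

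The heart signal was well above background on all 15 arrays for 37 of the 56 genes and on no array for 5 (Cd40lg, Tnfsf12, Tnfsf4, Tnfsf8 and Tnfaip8l3). A gene was tested if 4 or more of a group's 5 arrays showed this, and 45 genes were. Receptors were measured more completely than ligands: 23 of 25 receptors, 5 of 5 adaptors and 7 of 8 Tnfaip genes were tested, against 9 of 17 ligands. The 8 ligands not tested were Cd40lg, Cd70, Fasl, Tnfsf11, Tnfsf12, Tnfsf15, Tnfsf4 and Tnfsf8, and the 2 receptors were Tnfrsf14 and Tnfrsf23. Of the tested genes, 2 passed through only some groups, Tnfrsf13c (4 *db/+*, 0 untreated and 1 treated array) and Tnfsf18 (3, 4 and 4 arrays).

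**Figure D1:**
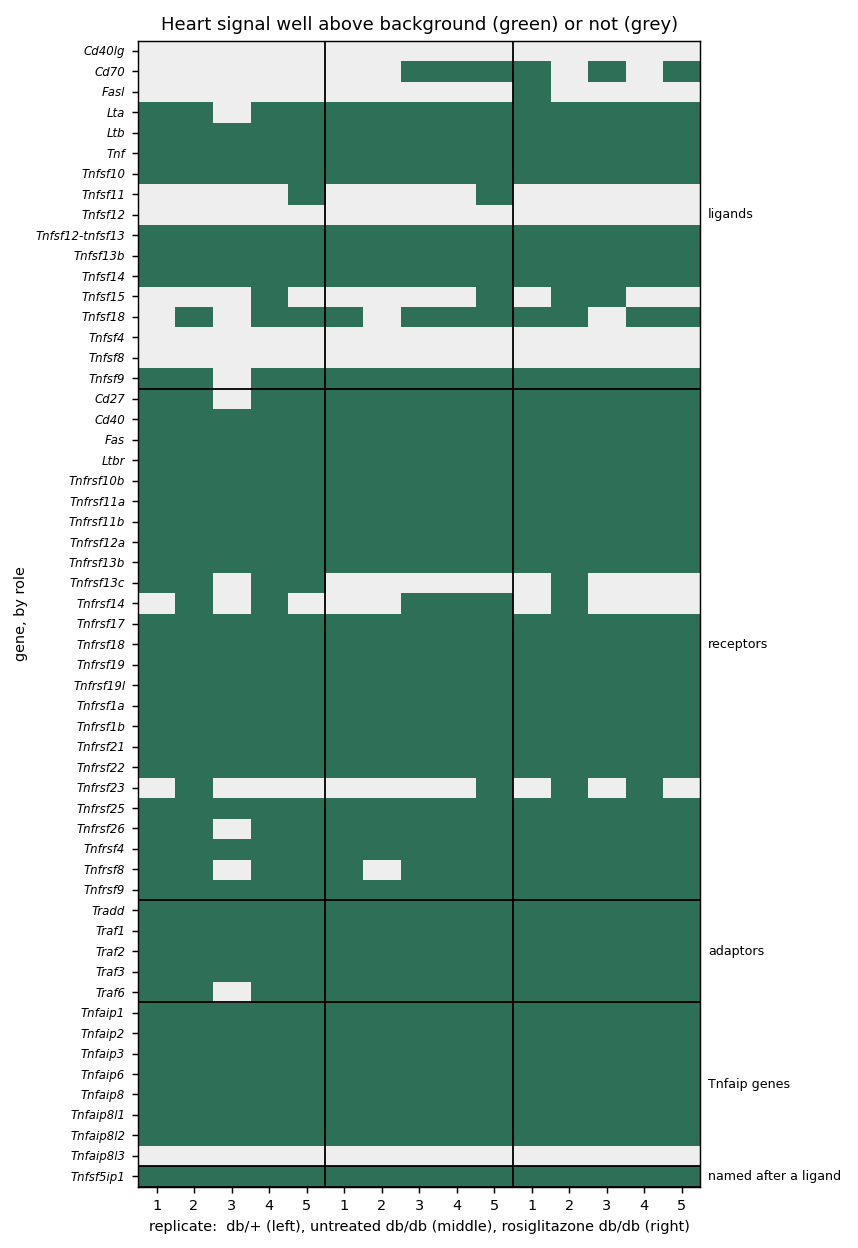
Grid of the 56 genes (rows, by role) against the 15 arrays (columns, by group and replicate), green where the heart signal was well above background and grey where it was not. Most receptors, adaptors and Tnfaip genes are green in every column, 8 of the 17 ligand rows are grey in most columns, and Tnfrsf13c is green on 4 *db/+* arrays and 1 treated array.

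The arrays lay on 4 slides that followed the groups in part: *db/+* replicates 1 to 4 on slide 1, *db/+* replicate 5 with untreated replicates 1 to 3 on slide 2, untreated replicates 4 and 5 with treated replicates 1 and 2 on slide 3, and treated replicates 3 to 5 on slide 4. Treated replicates 3 and 4 were nearly the same profile, with a median absolute deviation of 0.143 between their log2 heart signals against 0.271 to 0.622 in the other pairs of a group. They were averaged and counted as 1 sample, which leaves 4 treated samples. Cardiomyocyte markers had a mean log2 ratio of 3.55 to 7.56 in *db/+*, 5.24 to 7.20 in untreated and 6.44 to 6.86 in treated hearts, with 0 of 12 called in any comparison. The value of 3.55 came from *db/+* replicate 2. The share of probes well above background was 56.4% on *db/+* replicate 3 and 61.4% to 75.6% on the other arrays. Of 8 hepatocyte markers tested, 3 were higher in untreated hearts, whose mean log2 ratio of the list ran from 1.90 to 5.76 against 0.12 to 2.13 in *db/+* hearts. In whole hearts, fewer cells of a type and less RNA per cell cannot be told apart.

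Between untreated *db/db* and *db/+* hearts, 2 of the 45 tested genes were higher (Lta and Tnfrsf22) and 7 were lower (Tnfrsf13c, Tnfaip8l1, Tnfrsf17, Tnfaip8, Ltb, Tnfrsf21 and Traf1), at an adjusted p under 0.05 in limma, while 36 did not pass. Tnfrsf13c entered the test only through the *db/+* arrays, where it is high, so that its direction was given by the filter, and 6 lower genes are left without it. With it, 4.44% of the 45 genes were higher and 15.6% lower, beside 4.37% higher and 3.39% lower (7.76% in all) among the 27590 probes tested. The median log2 difference of the 45 genes was -0.14, against 0.01 over all probes. An unadjusted p under 0.05 was found for 15 of them (33.3%), against 25.5% of all probes. Groups did not overlap for 2 genes with higher values and 4 with lower values (13.3% of the 45 genes), against 4.33% and 3.47% of all probes (7.81% together). Tnfrsf13c is among the 4.

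Untreated *db/db* and *db/+* hearts share slide 2 alone, with 3 arrays against 1. With slide added to the fit the comparison rests on that single *db/+* array, and 1 of these 9 calls was left, that of Lta. The difference within slide 2 is given with each gene below as a value with no test. All 9 called genes had the same sign there as over all slides, but these arrays are among those that called them, so their sign is no separate evidence. On leaving out 1 sample at a time the count of lower genes was 4 to 8, lowest without untreated replicate 1 or 5, and that of higher genes 1 or 2, with 1 left without *db/+* replicate 4, treated replicate 5 or any untreated replicate but 2. Without *db/+* replicate 3 and untreated replicate 2 together, 1 was higher and 5 were lower.

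**Figure D2:**
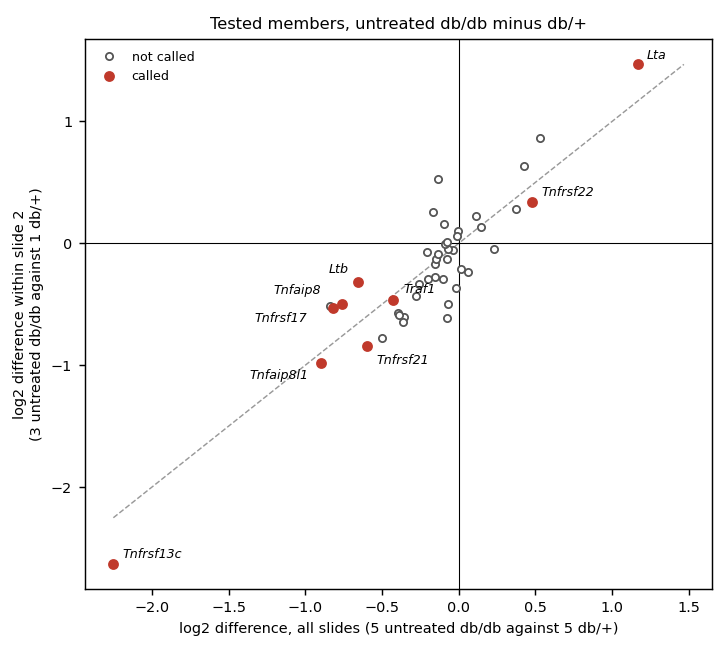
Log2 difference between untreated *db/db* and *db/+* hearts over all slides (horizontal axis, 5 against 5 arrays) and within slide 2 (vertical axis, 3 against 1 array) for the 45 tested genes; the dashed line marks equal values. The 9 called genes (red) lie in the quadrants of equal sign, Lta highest at 1.47 and Tnfrsf13c lowest at -2.63 within slide 2.

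Among the ligands, lymphotoxin alpha (Lta), which is secreted by lymphocytes and binds the same receptors as TNF, was 2.24-fold higher in untreated *db/db* hearts. Log2 ratios were -0.92, -0.70, -1.08, -1.04 and -0.97 in *db/+*, 0.57, 0.48, 0.46, -0.31 and -0.07 in untreated and -0.60, -0.72, -0.39 and 0.15 in treated hearts. Every untreated heart lay above every *db/+* heart, the 3 on slide 2 highest. Of the treated hearts, replicate 5 lay among the untreated and replicate 2 just below the highest *db/+* heart. The log2 difference was 1.17 ± 0.19 (SE, adjusted p = 0.00346) in untreated against *db/+* hearts, and 1.47 within slide 2. That contrast, with 1 *db/+* array in it, is also what the fit with slide as a block estimates (adjusted p = 0.0413). Treated hearts differed from *db/+* by 0.55 ± 0.20 (adjusted p = 0.104). Lta is a dim probe, with heart signals of 70.9 to 144 in *db/+*, 195 to 343 in untreated and 134 to 258 in treated hearts, and with another background correction (normexp) its difference was 0.36 with an adjusted p of 0.0711. The array holds it in 10 spots, whose SD within an array had a median of 0.16, against an SD between hearts of 0.15 in *db/+* and 0.39 in untreated mice.

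Lymphotoxin beta (Ltb), which anchors lymphotoxin alpha to the cell surface and signals through Ltbr in lymphoid tissue, was 1.58-fold lower. Its log2 ratios were -1.75, -1.88, -1.41, -1.72 and -2.16 in *db/+*, -2.62, -2.08, -2.74, -2.32 and -2.44 in untreated and -2.59, -2.70, -2.72 and -2.48 in treated hearts. *db/+* replicate 5 (-2.16) was below untreated replicate 2 (-2.08), the only overlap, and all treated hearts were below all *db/+* hearts. The difference was -0.66 ± 0.15 (adjusted p = 0.0173) in untreated and -0.84 ± 0.16 (adjusted p = 0.00668) in treated hearts. Within slide 2 it was -0.32. With slide as a block the calls were lost (adjusted p = 0.895 and 0.997), and fitted without the treated group the first was lost too (adjusted p = 0.0572).

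Tnf itself, between the other two on the chromosome, was not called, except with normexp, where untreated hearts were lower than *db/+* by a difference of -0.41 at an adjusted p of 0.0497. Ratios ran -0.36, -1.03, -1.54, -0.89 and -1.01 in *db/+*, -1.17, -1.84, -1.73, -1.10 and -0.97 in untreated and -1.60, -1.26, -1.43 and -1.57 in treated hearts, with wide overlap, and *db/+* replicate 1 stood highest. The difference between untreated and *db/+* hearts was -0.40 ± 0.21 (95% interval -0.85 to 0.06, adjusted p = 0.256), and that between treated and *db/+* hearts -0.50 ± 0.23 (interval -0.98 to -0.02, adjusted p = 0.173). Spots of the probe within an array differed by a median SD of 0.11, less than the 0.42 and 0.40 between *db/+* and untreated hearts.

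The other ligands tested did not pass. Their differences between untreated and *db/+* hearts ranged from -0.84 for Tnfsf10, the TRAIL ligand (adjusted p = 0.14), to 0.37 for Tnfsf13b, the BAFF ligand (adjusted p = 0.14), whose second probe gave 0.04 (adjusted p = 0.859). Fasl, the ligand of Fas on cytotoxic lymphocytes, was well above background on 1 treated array alone and was not tested. Its ratios were -0.20, 1.01, 1.53, 0.14 and -1.18 in *db/+*, -0.14, 0.00, 0.08, 1.25 and 0.00 in untreated and 0.41, 0.40, 0.90 and 1.03 in treated hearts, a spread in which the groups overlapped. Heart signals were low, at 10.8 to 34.2 in *db/+*, 7.53 to 23.2 in untreated and 22.8 to 94.6 in treated hearts.

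Of 3 receptors typical of the B lineage, Tnfrsf17 was called lower in *db/db* hearts and Tnfrsf13b did not pass. Tnfrsf13c was called lower too, but it passed the filter only through the *db/+* arrays, which gave its direction. Tnfrsf13c, the receptor through which BAFF keeps B cells alive, had log2 ratios of -2.0, -2.34, -3.08, -2.49 and -2.37 in *db/+*, -5.40, -5.28, -4.30, -3.94 and -4.61 in untreated and -4.57, -3.14, -4.33 and -3.84 in treated hearts. No untreated or treated heart reached a *db/+* heart. The signal was not well above background on any untreated array. With untreated signals raised to the lowest signal well above background on their array, untreated hearts were 2.43-fold lower. That fold was not tested, and its *db/+* mean includes replicate 3, which was not well above background. In limma the measured log2 difference was -2.25 (adjusted p = 0.00134), which rests on untreated signals that were not well above background. Treated hearts, with 1 of 5 arrays well above background, differed from *db/+* by -1.51 ± 0.34 (adjusted p = 0.0174), and this call was lost without treated replicate 1 (adjusted p = 0.0586) or without replicates 3 and 4 (0.0531), and with normexp it was -0.66 (adjusted p = 0.133). With 4 of the 5 treated arrays not well above background, that difference rests on signals near the detection limit. Within slide 2 the measured difference between untreated and *db/+* hearts was -2.63, and with slide as a block the adjusted p was 0.165. With normexp it was -1.08 over all slides, and still called.

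Tnfrsf17 (BCMA), the receptor for BAFF and APRIL on plasma cells, was 1.76-fold lower in untreated hearts. Log2 ratios were -1.84, -2.15, -1.49, -1.64 and -2.07 in *db/+*, -3.08, -2.67, -2.05, -2.41 and -3.07 in untreated and -2.67, -2.54, -2.83 and -2.62 in treated hearts. Untreated replicate 3 fell among the *db/+* hearts, and the treated hearts all lay below them. The difference was -0.82 ± 0.19 (adjusted p = 0.0225) and -0.83 ± 0.20 (adjusted p = 0.0253) for untreated and treated hearts, and -0.53 within slide 2 for the first. The first call was lost without *db/+* replicate 3 or 4 or untreated replicate 1 or 5, at adjusted p of 0.0508 to 0.0561. The second was lost without *db/+* replicate 3 or 4, treated replicate 1 or 5, or treated replicates 3 and 4, at 0.0524 to 0.0688. The remaining BAFF and APRIL receptor, Tnfrsf13b (TACI), did not pass in untreated (adjusted p = 0.0957) or treated hearts (0.073) against *db/+*, at differences of -0.50 and -0.57. This is its brighter probe, made for AK004668, and the dimmer one, for NM_021349, gave 0.25 in untreated hearts (adjusted p = 0.584), the opposite sign, and -0.34 in treated hearts (adjusted p = 0.462). With normexp the differences of Tnfrsf17 were -0.80 and -0.65, and neither passed (adjusted p = 0.0568 and 0.139).

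Several markers of B cells were lower in *db/db* hearts, as were Tnfrsf17 and Ltb. Other lymphocyte genes of the family differed: in untreated hearts Lta was called higher (1.17), and Cd27 did not pass (0.23). Of 12 B cell markers, all were on the array and 9 were tested. Among these, 5 were lower in untreated *db/db* hearts and 5 in treated ones, and none was higher. Their mean log2 ratio was -1.02 to -0.25 in *db/+*, -1.76 to -1.18 in untreated and -1.49 to -1.29 in treated hearts, and their median difference -0.59 and -0.70. Cd79b, a chain of the B cell antigen receptor complex, differed by -1.0 in untreated hearts (adjusted p = 0.000215), and Ms4a1, which encodes CD20, by -1.94 (adjusted p = 0.000276). Of the defining markers, Cd79a was well above background on 1 *db/+*, 2 untreated and 4 treated arrays, and Pax5 on 3, 0 and 0. Of the T cell markers 1 of 11 tested was lower in untreated hearts (median -0.37), and of the NK cell markers 2 of 4 (median -1.26). Neutrophil markers ran the other way, with a mean log2 ratio of 0.50 to 1.21 in *db/+*, 1.26 to 2.22 in untreated and 1.61 to 3.46 in treated hearts, though of 4 tested 0 were called in untreated hearts and 1 was higher in treated hearts. Of 8 adipocyte markers tested, 1 was higher and 2 were lower in untreated and 2 were lower in treated hearts, at means of 2.5 to 3.46 in *db/+*, 1.95 to 3.43 in untreated and 2.11 to 2.27 in treated hearts. Among 13 macrophage and monocyte, 10 endothelial and 8 fibroblast markers, 0 were called in any comparison. The macrophage and monocyte medians were -0.19 in untreated and -0.12 in treated hearts against *db/+*. The part of these cells in the differences of the TNF genes was not tested.

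Of the receptors that are not of the B lineage, Tnfrsf21 (death receptor 6) was 1.51-fold lower in untreated hearts. It had ratios of 0.67, 0.22, -0.08, 0.03 and 0.53 in *db/+*, -0.20, -0.65, -0.09, -0.48 and -0.21 in untreated and -0.30, -0.15, -0.29 and -0.55 in treated hearts. Neither group of *db/db* hearts overlapped *db/+*, though the gap was under 0.01 against untreated hearts. The differences were -0.60 ± 0.16 (adjusted p = 0.0346) and -0.60 ± 0.17 (adjusted p = 0.0411), and -0.85 within slide 2 for the first. The first call was lost without *db/+* replicate 1, 2 or 5 or untreated replicate 1, 2, 4 or 5 (adjusted p of 0.0518 to 0.0673). The second was lost without those *db/+* replicates, untreated replicate 1 or 5, or any treated sample (0.0507 to 0.118). At a second probe of the gene the difference of untreated hearts was -0.47 (adjusted p = 0.166), which missed the threshold. With normexp the differences were -0.36 (adjusted p = 0.0474) and -0.40 (adjusted p = 0.0574).

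Tnfrsf22, a mouse decoy receptor for TRAIL on chromosome 7, was the receptor called higher. Ratios were -0.96, -0.64, -0.97, -0.70 and -0.59 in *db/+*, -0.19, -0.53, -0.05, -0.34 and -0.36 in untreated and -0.22, -0.23, -0.75 and -0.43 in treated hearts. The untreated hearts lay just above *db/+* without overlap, and treated replicates 3 and 4 fell among *db/+*. The difference was 0.48 ± 0.13 (adjusted p = 0.0385), 0.34 within slide 2, and 0.04 (adjusted p = 0.771) with normexp. Heart signals alone overlapped, at 130 to 204 in *db/+* and 92.8 to 208 in untreated hearts. Treated hearts had the highest signals, at 227 to 432, though their mean ratio (-0.41) was below that of untreated hearts (-0.29). The call was lost without *db/+* replicate 1, 3 or 4, untreated replicate 1, 3, 4 or 5, or treated replicate 5 (adjusted p of 0.0538 to 0.0898). Its neighbour Tnfrsf26 did not pass (-0.15 ± 0.16, adjusted p = 0.609), and Tnfrsf23 was not tested.

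The receptors of TNF were not called. Tnfrsf1a, the widely expressed receptor with a death domain, had ratios of -1.13, -0.72, -1.21, -0.86 and -0.92 in *db/+*, -0.84, -0.63, -0.89, -0.91 and -0.83 in untreated and -0.79, -0.41, -0.48 and -0.62 in treated hearts. Its difference from *db/+* was 0.15 ± 0.11 in untreated hearts (interval -0.09 to 0.38, adjusted p = 0.433) and 0.39 ± 0.12 in treated hearts (interval 0.14 to 0.64, adjusted p = 0.0525). Treated hearts were at the upper end and overlapped *db/+* replicate 2, and the difference of treated hearts passed under 7 of 27 other settings (adjusted p of 0.019 to 0.0493), among them that without *db/+* replicate 2 (0.0338). Tnfrsf1b, found mainly on immune and endothelial cells, had ratios of -1.83, -1.69, -2.01, -1.73 and -1.97 in *db/+*, -1.97, -1.90, -2.0, -1.71 and -2.04 in untreated and -1.97, -1.52, -1.74 and -1.89 in treated hearts. Groups overlapped throughout, with a difference of -0.08 ± 0.11 in untreated hearts (interval -0.31 to 0.15, adjusted p = 0.692). With normexp it was -0.62 (adjusted p = 0.072), outside that interval, and a second probe gave 0.04 (adjusted p = 0.878).

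Fas, the death receptor that activates caspase 8, depended on the probe and on the processing. At the brighter probe ratios were 0.89, 0.72, 1.46, 1.22 and 0.88 in *db/+*, 1.23, 1.64, 1.69, 1.38 and 1.36 in untreated and 1.58, 1.28, 1.59 and 1.37 in treated hearts, a difference of 0.42 ± 0.14 for untreated hearts that did not pass (adjusted p = 0.086). The dimmer probe gave 1.66, 1.31, 1.57, 1.55 and 0.92 in *db/+*, and 2.32, 2.45, 2.57, 1.86 and 2.48 in untreated hearts. No untreated heart overlapped *db/+* at that probe, and the difference of 0.94 ± 0.18 passed (adjusted p = 0.00802), while that of treated hearts (0.64 ± 0.19) did not (adjusted p = 0.0529). The probes lie 18169 bases apart. With normexp the brighter probe passed in untreated (0.73, adjusted p = 0.0132) and treated hearts (0.72, adjusted p = 0.0244), and over the 27 other settings it passed in 5 for untreated and 6 for treated hearts, among them that without *db/+* replicate 3 (adjusted p = 0.0333 and 0.0387).

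The other receptors did not pass in untreated against *db/+* hearts. Tnfrsf10b, the mouse TRAIL receptor with a death domain, had ratios of -2.19, -2.07, -1.84, -2.16 and -2.06 in *db/+*, -2.42, -2.57, -2.18, -2.34 and -2.12 in untreated and -2.07, -1.85, -1.69 and -2.15 in treated hearts. Untreated hearts were mostly the lowest, with an overlap, at a difference of -0.26 ± 0.12 (adjusted p = 0.173). Cd27 on lymphocytes and Cd40 on antigen-presenting cells differed by 0.23 ± 0.24 (adjusted p = 0.581) and -0.20 ± 0.13 (adjusted p = 0.358).

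Of the adaptors, which link receptors to kinases, 1 of 5 was called. Traf1, itself an NF-κB target, had ratios of -1.68, -1.78, -1.77, -1.48 and -1.80 in *db/+*, -2.11, -2.30, -2.41, -1.78 and -2.07 in untreated and -2.18, -1.79, -1.99 and -2.18 in treated hearts. Untreated replicate 4 reached the *db/+* hearts, and the difference of -0.43 ± 0.12 passed narrowly (adjusted p = 0.0499). It was lost on leaving out any one of the samples except untreated replicate 4 (adjusted p of 0.0514 to 0.117). Tradd, Traf2, Traf3 and Traf6 had differences of -0.16 to 0.00, with Traf2 lacking untreated replicate 5 and Traf6 untreated replicate 2, whose spots were left out as outliers. None of the 5 passed in treated hearts. With normexp the difference of Traf1 in untreated hearts was -0.82 (adjusted p = 0.0313).

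Of the Tnfaip genes, 2 of 7 tested were lower, both of the TIPE family, whose proteins bind lipid messengers. Tnfaip8l1 was 1.86-fold lower in untreated hearts, with ratios of -1.03, -1.21, -1.74, -1.40 and -1.28 in *db/+*, -2.39, -2.05, -2.34, -2.06 and -2.30 in untreated and -1.79, -1.89, -2.04 and -1.97 in treated hearts. All *db/db* hearts lay below all *db/+* hearts. Treated samples lay above the untreated only with treated replicates 3 and 4 averaged. Before averaging, treated replicate 3 read -2.055, just below untreated replicate 2 at -2.05. The differences from *db/+* were -0.90 ± 0.13 (adjusted p = 0.00124) and -0.59 ± 0.13 (adjusted p = 0.0184), and -0.98 within slide 2 for untreated hearts. The call in treated hearts was lost without treated replicate 5 (adjusted p = 0.0548) or replicates 3 and 4 (0.0549).

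Tnfaip8, the founding member of that family, was 1.69-fold lower in untreated hearts. Ratios were 1.70, 1.40, 1.93, 1.96 and 1.40 in *db/+*, 0.80, 0.77, 1.13, 1.04 and 0.86 in untreated and 0.93, 0.99, 1.25 and 1.12 in treated hearts, again with no *db/db* heart among *db/+*. Differences were -0.76 ± 0.13 (adjusted p = 0.00433) and -0.61 ± 0.14 (adjusted p = 0.0185), and -0.50 within slide 2 for the first. The call in treated hearts was lost without treated replicate 1 (adjusted p = 0.0601) or 2 (0.0548). With normexp the differences were -0.50 (adjusted p = 0.0407) and -0.37 (adjusted p = 0.125). The related Tnfaip8l2 did not pass (-0.17 ± 0.15, adjusted p = 0.517).

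Tnfaip3 (A20), the ubiquitin-editing enzyme that shuts off NF-κB signalling, had ratios of -1.68, -1.60, -1.97, -1.87 and -1.62 in *db/+*, -2.12, -2.04, -2.51, -1.70 and -2.16 in untreated and -2.12, -1.98, -2.17 and -2.40 in treated hearts. Treated hearts did not overlap *db/+*, but neither difference passed, at -0.36 ± 0.14 (adjusted p = 0.126) and -0.41 ± 0.15 (adjusted p = 0.0916). In untreated hearts it passed with normexp (-0.69, adjusted p = 0.0461) and without untreated replicate 4 (-0.46, adjusted p = 0.0488), and in treated hearts with array weights (-0.47, adjusted p = 0.0417). Tnfaip1 and Tnfaip2 differed by -0.08 and 0.06 in untreated hearts, short of the threshold.

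**Figure D3:**
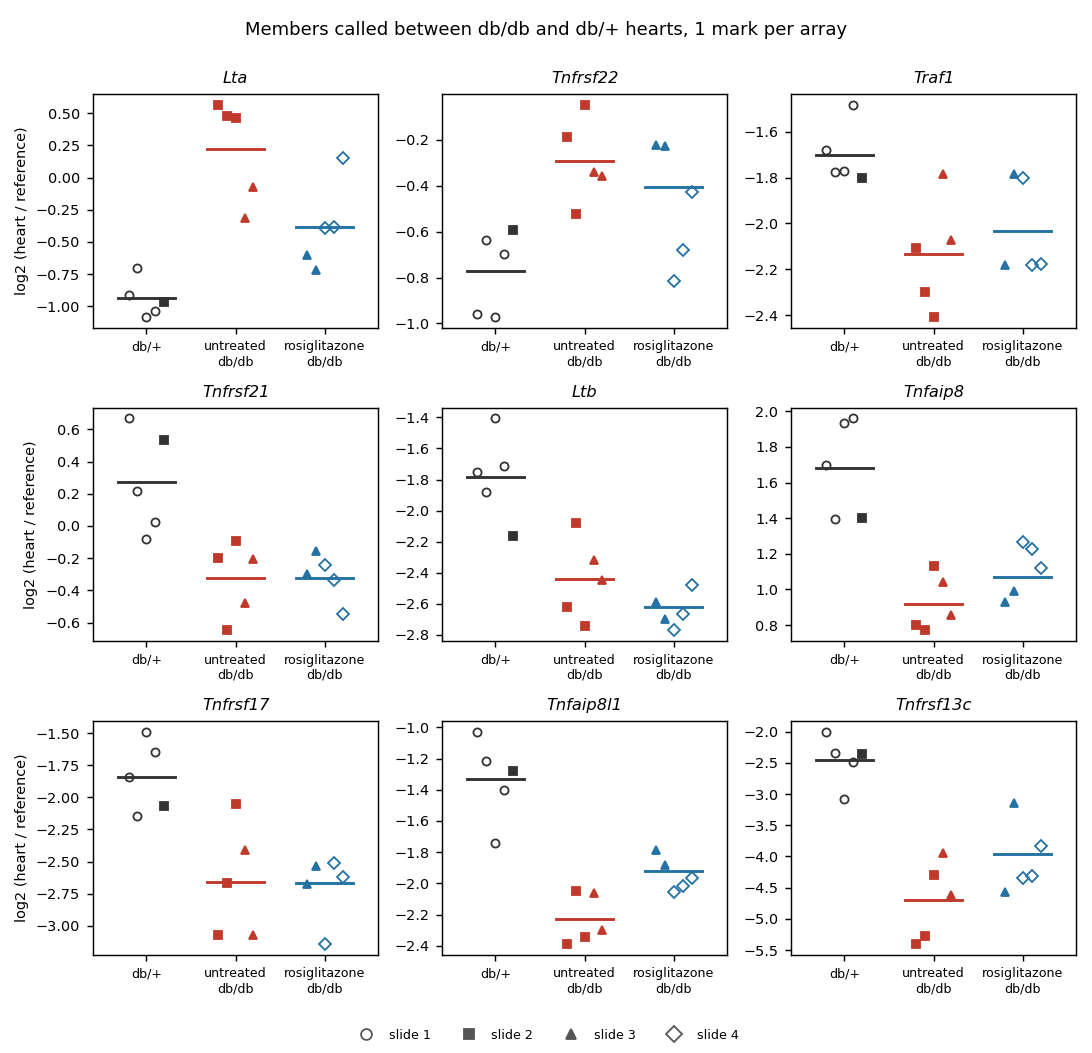
Log2 ratio of heart to reference (vertical axes, own scale in each panel) for the 9 genes called against *db/+*, by group. Each mark is 1 array, its shape shows the slide, and the bar is the group mean with treated replicates 3 and 4 averaged; untreated hearts lie above *db/+* for Lta and Tnfrsf22 and below for the other 7, with overlap for Ltb, Tnfrsf17 and Traf1.

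Treated *db/db* against *db/+* hearts gave 0 higher and 6 lower genes of 45 (5 without Tnfrsf13c), beside 4.49% higher and 4.22% lower of all probes (8.71% in all). The 6 (Tnfrsf13c, Ltb, Tnfrsf17, Tnfaip8, Tnfrsf21 and Tnfaip8l1) were among the 7 that were lower in untreated hearts, with the same *db/+* hearts in both comparisons. The median difference was -0.08 against 0.01 over all probes. An unadjusted p under 0.05 was found for 26 genes (57.8%, against 26.8% of all probes). Groups did not overlap for 3 genes with higher values and 9 with lower values (26.7%), against 7.61% and 6.98% of all probes (14.6% together). Among the 9 is Tnfrsf13c, and among the 3 is Tnfsf18, which passed the filter only through the *db/db* arrays. For Tnfsf18 treated replicate 3 read -0.629, among the *db/+* hearts, before it was averaged with replicate 4 (0.059). With slide as a block none of the 6 passed, and with normexp 2 were lower, Ltb and Tnfaip8l1. On leaving out 1 sample at a time 2 to 7 were lower, with 2 left without treated replicate 1 or replicates 3 and 4, and 3 without replicate 5. Without *db/+* replicate 3 and untreated replicate 2 together, 2 were higher and 5 lower. Tnfaip6 (TSG-6), a secreted protein that binds hyaluronan, had the largest difference, 1.57 ± 0.47, and did not pass (adjusted p = 0.0535). It was singled out after its values were seen, and its ratios of -1.14, 0.41, 1.72 and -0.55 in treated hearts spread over more than those of -1.40, -1.63, -1.04, -1.66 and -1.57 in *db/+*.

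**Figure D4:**
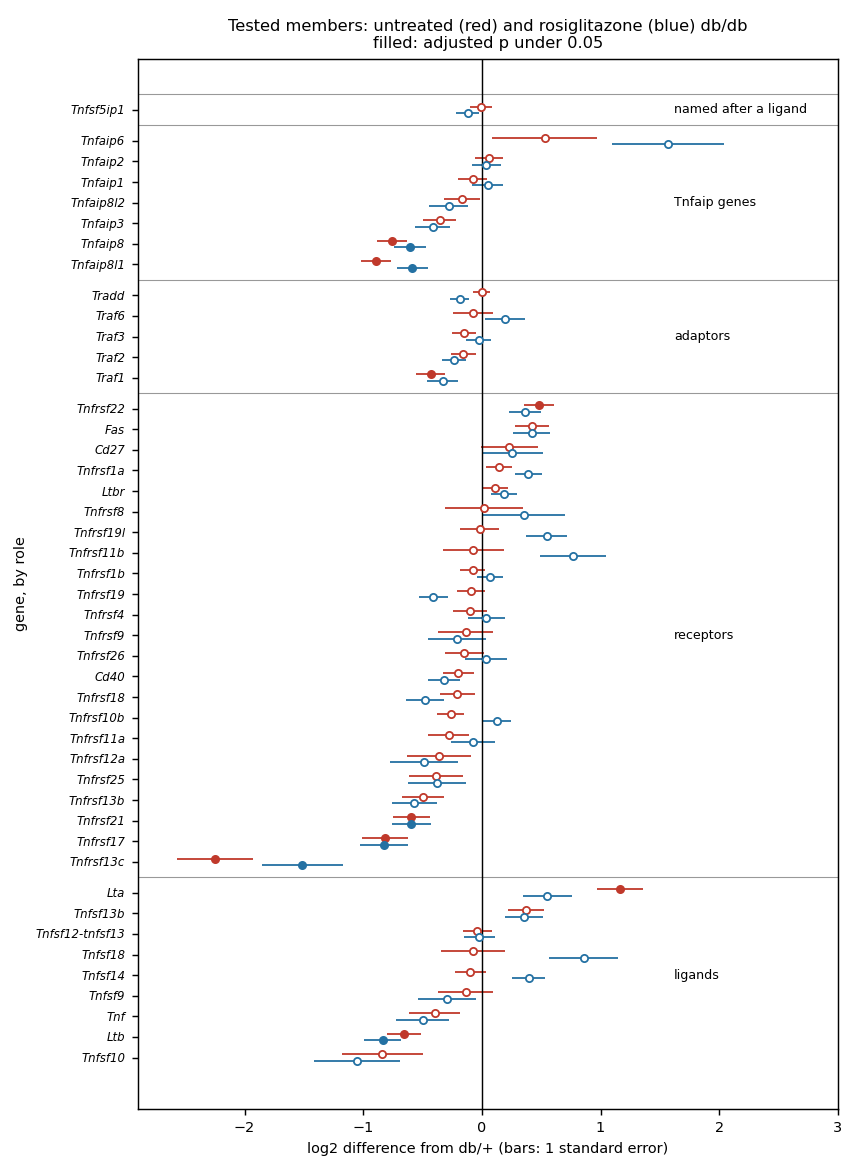
Log2 difference from *db/+* (horizontal axis, bars of 1 standard error) for the 45 tested genes by role, in untreated (red) and treated (blue) *db/db* hearts; filled points had an adjusted p under 0.05. Filled points lie left of 0 except those of Lta and Tnfrsf22 in untreated hearts.

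Rosiglitazone-treated and untreated *db/db* hearts did not differ in any of the 45 genes in limma at an adjusted p under 0.05, nor in any of the 27590 probes (0% called). At an unadjusted p under 0.05 there were 11 genes (24.4%), against 8.78% of all probes. The median difference was 0.01, against -0.01 over all probes. With treated replicates 3 and 4 averaged, the groups did not overlap for Tnfrsf19l, Tnfrsf11b and Tnfaip8l1, which were above, and for Tradd, which was below (8.89% of the 45), against 2.08% and 2.5% of all probes (4.58% together). Before averaging, treated replicate 3 overlapped the untreated hearts for Tnfaip8l1. These shares describe the values and no gene passed.

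Tnfsf14 (LIGHT), a ligand of the lymphotoxin beta receptor, had the smallest p. Its ratios were -1.37, -1.35, -1.31, -0.98 and -1.60 in *db/+*, -1.59, -1.33, -1.41, -1.21 and -1.56 in untreated and -0.82, -0.84, -0.77 and -1.28 in treated hearts. Treated hearts were higher in 3 of 4 samples, the difference was 0.49 ± 0.14 (adjusted p = 0.42 in limma), and within slide 3 it was 0.56. Replicates 3 and 4, alike at most probes, read -0.27 and -1.27 at this one.

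Tnfrsf19l, now named Relt, a receptor of lymphoid tissue, had ratios of -0.83, -1.12, -0.96, -0.60 and -0.64 in *db/+*, -1.23, -1.23, -0.56, -0.65 and -0.57 in untreated and -0.50, -0.39, -0.12 and -0.12 in treated hearts. Every treated heart lay above all the others, by 0.57 ± 0.17 over untreated hearts (adjusted p = 0.432 in limma) and by 0.17 within slide 3. Tnfsf18 (GITR ligand) had ratios of -0.84, -0.94, -0.30, -0.95 and -0.30 in *db/+*, -0.84, -1.73, -0.17, -0.34 and -0.62 in untreated and 0.41, 0.61, -0.29 and 0.05 in treated hearts. Overlap with untreated hearts came from their replicate 3 and treated replicates 3 and 4, and the difference was 0.94 ± 0.29 (adjusted p = 0.432 in limma) and 0.99 within slide 3. Treated replicates 3 and 4 read -0.63 and 0.06 before averaging. The probe is dim, with heart signals of 21.4 to 57.5 in untreated and 40.4 to 129 in treated hearts. With normexp the difference of Tnfsf18 was 0.22, that of Tnfrsf19l 0.30 and that of Tnfsf14 0.22.

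The TRAIL receptor Tnfrsf10b differed by 0.39 ± 0.12 between treated and untreated hearts (adjusted p = 0.439 in limma), with an overlap of 1 heart in each group. A second tested probe of the gene gave -0.05 (adjusted p = 0.972), and 0.14 in untreated against *db/+* hearts (adjusted p = 0.655), where the first gave -0.26. Tnfrsf11b, osteoprotegerin, a secreted decoy receptor for the bone ligand RANKL, was named after its values were seen. It had ratios of -3.75, -3.67, -2.59, -2.61 and -2.82 in untreated and -2.47, -1.88, -2.08 and -2.56 in treated hearts, 0.84 ± 0.28 apart (adjusted p = 0.446). Lta, higher in untreated than in *db/+* hearts, was -0.61 ± 0.20 in treated against untreated hearts (interval -1.05 to -0.17, adjusted p = 0.451) and -0.47 within slide 3. For Tnf the same difference was -0.10 ± 0.23 (interval -0.58 to 0.38) and for Tnfrsf1a 0.25 ± 0.12 (interval 0.00 to 0.50).

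**Figure D5:**
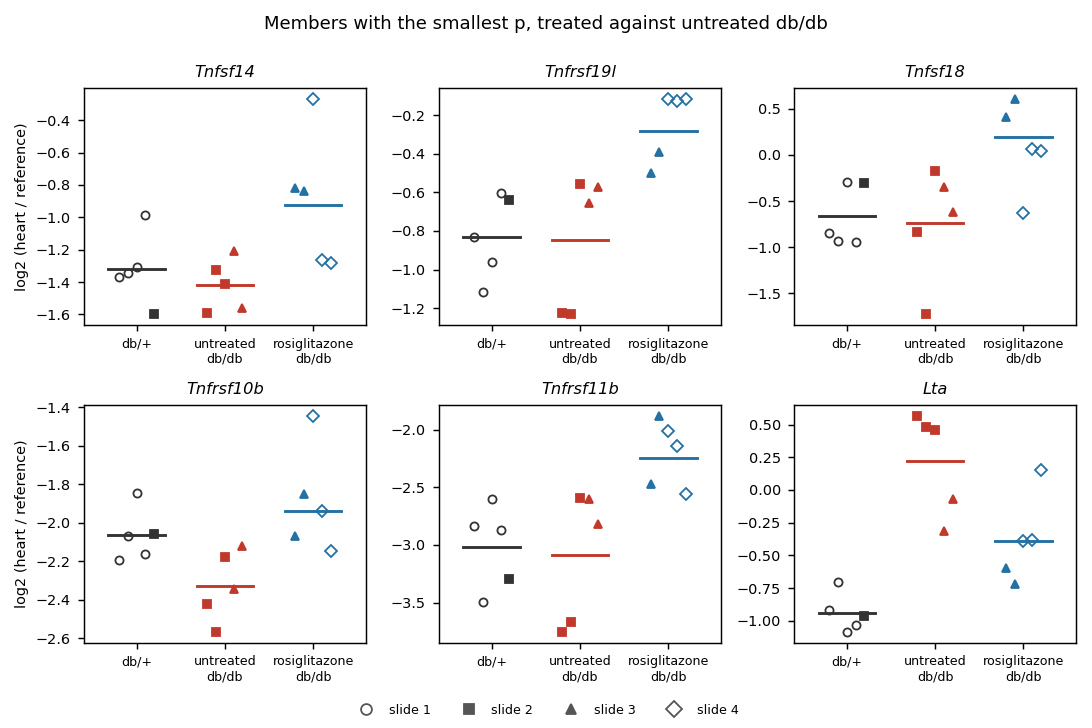
Log2 ratio of heart to reference (vertical axes, own scale in each panel) by group for the 6 genes with the smallest unadjusted p in treated against untreated *db/db* hearts, none of which passed. Marks are arrays, shapes show slides and bars are group means with treated replicates 3 and 4 averaged; treated hearts of Tnfrsf19l and Tnfrsf11b lie above all untreated hearts.

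The wider pathway was described by 2 lists that leave out the genes above. Of 50 genes of TNF and NF-κB signalling on the array, 49 were tested, and 0 were higher and 1 lower in untreated against *db/+* hearts, at a median difference of -0.01. Of all probes 4.37% were higher and 3.39% lower in that comparison. Casp8, the caspase that starts death receptor killing, was lower (-0.41 ± 0.11, adjusted p = 0.0346), and Cflar, which holds that caspase back, differed by -0.53 ± 0.16 (adjusted p = 0.0651). The next by p, the deubiquitinase Cyld (-0.24 ± 0.09, adjusted p = 0.104) and the kinase adaptor Tab2 (0.21 ± 0.08, adjusted p = 0.12), did not pass either. None of the 49 passed in the comparisons that involve treated hearts.

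Of 33 genes known to be induced by TNF, 26 were tested. In untreated hearts 2 were higher and 0 lower (median -0.02), beside 4.37% and 3.39% of all probes. Among the 2 was Gch1, the first enzyme of tetrahydrobiopterin synthesis (0.42 ± 0.11, adjusted p = 0.0392). The protease gene Plau and the gelatinase Mmp9 did not pass, at -0.78 ± 0.28 (adjusted p = 0.0982) and -0.52 ± 0.19 (adjusted p = 0.111). In treated against *db/+* hearts 2 were higher, among them Gch1 (0.54 ± 0.12, adjusted p = 0.0152), beside 4.49% of all probes. Vcam1, the adhesion molecule of activated endothelium, was lower (-0.61 ± 0.17, adjusted p = 0.0455), beside 4.22% of all probes. None passed between treated and untreated hearts. With slide as a block none of the genes of both lists passed in any comparison. On leaving out 1 sample at a time, the 3 calls of both lists in untreated hearts became 0 without *db/+* replicate 3 or 4 or untreated replicate 5, 1 without *db/+* replicate 1 or untreated replicate 3, 2 without untreated replicate 1 or 2 or any treated sample, and 5 without untreated replicate 4. The 3 calls in treated hearts became 1 without treated replicate 5 and 2 without treated replicate 1, treated replicates 3 and 4, *db/+* replicate 4 or untreated replicate 1, 4 or 5.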

How the data were processed

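Per the file headers, the authors read both channels of each Agilent array with Feature Extraction 9.5.1.1 and deposited, for every spot, processed intensities and the log10 ratio of Cy5 (heart) over Cy3 (reference), both dyes normalized by LOWESS. The deposited log10 ratio was converted to log2 without further normalization. Non-uniform and population outlier spots were left out and the spots of a probe averaged. The 27590 of 41174 probes whose heart intensity was well above background on 4 or more of a group's 5 arrays entered the test. The table of values the authors deposited for the series held the same log10 ratios.

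One model in limma 3.58.1 (R 4.3.3) held all groups, with treated replicates 3 and 4 averaged (14 samples, 11 residual degrees of freedom), and p-values were adjusted by Benjamini-Hochberg over all tested probes. The study's SAM test was not run. Alternatives changed the background correction (normexp, offset 50), scaling, filter, slide, replicate block, probes and samples. The members and gene lists were chosen with earlier results of these data known. Named with values in every heart are genes called in any comparison, 14 chosen by name (among them Tnf, its receptors, Fas and genes named by the study), and the 3 with the smallest p in treated against untreated hearts. The paper states that RNA was isolated separately for each heart sample, so the samples of a group were taken as separate mice. Whether treated replicates 3 and 4 come from separate mice is not known. Of 105 pairs of arrays, 100 spread more in the reference channel, which held the same RNA, than these replicates did in heart signal. The number of arrays limits the precision. The limma step was tested on simulated data. Symbols are those of the array, and updates come from RefSeq. Figures were drawn with matplotlib 3.10.9. 1 gene of the list of TNF-induced genes is counted but not reported here.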

Additional observations from a re-analysis of the deposited data

Results flagged for a closer look

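In 2 of 57 groups of the 19 named genes, 1 sample stood apart from the rest of its group by Dixon's test at the 95% level, which chance gives in about 1 group in 20. Untreated replicate 4 had a log2 ratio of 1.25 for Fasl, against -0.14 to 0.08 in the other untreated hearts, with the heart signal not well above background on any of these arrays. Treated replicate 5 had a log2 ratio of -1.28 for Tnfsf14, against -0.84 to -0.77 in the other treated samples. The value of -0.77 is the average of treated replicates 3 and 4, which read -0.27 and -1.27, so replicate 5 lay beside replicate 4 before averaging.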

How the results depend on the processing

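No difference of a named gene that passed changed sign. Of the values of single genes under other settings, 1318 stayed on their side of the threshold, 51 of these with a change of sign below it, 98 were lost as calls and 33 were gained. Between treated and untreated hearts none of the genes passed under any setting run. The main counts are 2 higher and 7 lower for untreated and 0 higher and 6 lower for treated *db/db* against *db/+* hearts, and 3 genes of the wider pathway in each, and values that moved by over 1.5 times follow in that order of comparisons.

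With slide as a fixed block, 1 was higher and 0 lower in untreated hearts, 0 were lower in treated hearts, and 0 pathway genes passed. As a random block, whose correlation within slides was -0.114, slide gave 7 higher and 10 lower in treated hearts and 10 pathway genes in each comparison. With normexp 1 was higher in untreated hearts, and 1 was higher and 2 were lower in treated hearts. Scaling between arrays gave 1 higher in treated hearts. Without a filter 1 was higher in untreated hearts, and with signal well above background required on all arrays 1 in untreated and 2 in treated hearts, with 5 pathway genes in the latter. With treated replicates 3 and 4 as separate samples 5 were higher in treated hearts and 7 pathway genes passed. With only the groups compared in the fit, 1 was higher and 3 lower in untreated hearts with 0 pathway genes, and 2 were higher in treated hearts. Array weights gave 0 pathway genes in untreated hearts, and 3 higher and 6 pathway genes in treated hearts. The mean of a gene's probes gave 2 higher in treated hearts. Leaving out *db/+* replicate 3 and untreated replicate 2 together, chosen after earlier results, gave 1 higher and 0 pathway genes in untreated hearts and 2 higher in treated hearts, while keeping the outlier spots, also added later, moved no count by over 1.5 times. The cause of these changes was not tested.

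Leaving out 1 sample at a time gave 1 to 2 higher, 4 to 8 lower and 0 to 5 pathway genes in untreated hearts, and 0 to 2 higher, 2 to 7 lower and 1 to 4 pathway genes in treated hearts.

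Replicate numbers are shared by the groups, but same-numbered hearts did not deviate together: the correlations of their deviations from the group means ran from -0.19 to 0.05 in 15 pairs (median -0.01), and 0 passed 0.1. No shared deviation was seen, so the main fit took the samples as unpaired. With so few samples a group, these correlations cannot decide whether the numbers mark a pairing. With a replicate block (treated 3 and 4 separate) 1 was higher and 5 were lower in untreated hearts with 1 pathway gene, and 3 were higher and 8 lower in treated hearts with 5 pathway genes.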
